A study of Mus musculus with 10 samples.

Results

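The genes of elastic fibres and their microfibrils were followed through the conversion of neonatal mouse heart fibroblasts into cardiomyocyte-like cells and in primary cardiomyocytes. They are 5 fibulins (Fbln1, Fbln2, Fbln5, Efemp1 and Efemp2), the fibrillins Fbn1 and Fbn2, the microfibril-associated genes Mfap4 and Mfap5, and Eln, which encodes tropoelastin. They were chosen by symbol, and all 10 of 10 were found among the 21513 gene symbols of the count table. All 10 passed the filter on low counts, which left 15740 genes for testing. Polyadenylated RNA of wild-type heart cells from mice of postnatal day 1 to 3 was sequenced in 10 libraries, 2 in each of 5 groups. One group is cardiac fibroblasts at day 14 (CF). In 3 groups cardiomyocyte-like cells (iCM) were induced with the factors Mef2c, Gata4 and Tbx5, which the labels shorten to MGT, and collected on day 14. One of these received only the solvent dimethyl sulfoxide (DMSO), another ZLN005, which raises transcription of Ppargc1a, and the last GW501516, which activates the nuclear receptor PPARδ. The fifth group is primary cardiomyocytes at day 3 (CM). The series set out to compare the compound-treated iCM with these cardiomyocytes.

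The labels do not give the doses, the length of treatment, the vector that carried the factors, or whether replicates are separate cultures or animals. The p-values therefore measure only the spread between these libraries. No vector and no DMSO is named for CF, so effects of the factors, of their delivery and of the solvent cannot be told apart in iCM with DMSO against CF. Comparisons with CM differ in day as well as in cell type. The titles call the last group cardiomyocytes, while its cell type and treatment fields repeat the fibroblast entries.

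Fibrillins polymerise outside the cell into microfibrils, on which tropoelastin is laid down and crosslinked by lysyl oxidases to form elastic fibres. Short fibulins carry tropoelastin and the crosslinking enzymes to the microfibril, and microfibrils also hold latent TGFβ through the LTBP proteins. In the heart these proteins are made mainly by fibroblasts, valve cells and vascular smooth muscle.

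Promoter sequence was available from RefSeq (GRCm38.p6) for 6 of the 10 genes, in 10 windows. The 4 windows below are shown because they set the gene that rose with reprogramming (Efemp1) beside Fbln1, which fell, and beside Fbln5 and Efemp2, which were not called changed at that step. Each is the stretch of 250 bases before a RefSeq transcription start, read 5′ to 3′ on the gene's strand. They lie at chr11:28852955-28853204 on the plus strand (Efemp1), chr15:85205699-85205948 on the plus strand (Fbln1), chr12:101819120-101819369 on the minus strand (Fbln5) and chr19:5473696-5473945 on the plus strand (Efemp2). Capitals mark matches, on either strand, to the AP-1 letters TGANTCA, the SMAD letters CAGAC and the GC box GGGCGG.
Efemp1: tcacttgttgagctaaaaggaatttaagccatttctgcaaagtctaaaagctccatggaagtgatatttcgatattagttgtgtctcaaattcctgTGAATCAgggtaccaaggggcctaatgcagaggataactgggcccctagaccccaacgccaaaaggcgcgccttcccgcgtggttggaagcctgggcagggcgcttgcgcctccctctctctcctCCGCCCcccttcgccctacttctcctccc
Fbln1: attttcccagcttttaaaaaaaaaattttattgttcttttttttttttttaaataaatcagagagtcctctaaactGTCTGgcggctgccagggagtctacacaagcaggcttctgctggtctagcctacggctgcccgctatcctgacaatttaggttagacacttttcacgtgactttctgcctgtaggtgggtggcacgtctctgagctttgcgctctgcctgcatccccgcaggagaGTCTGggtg
Fbln5: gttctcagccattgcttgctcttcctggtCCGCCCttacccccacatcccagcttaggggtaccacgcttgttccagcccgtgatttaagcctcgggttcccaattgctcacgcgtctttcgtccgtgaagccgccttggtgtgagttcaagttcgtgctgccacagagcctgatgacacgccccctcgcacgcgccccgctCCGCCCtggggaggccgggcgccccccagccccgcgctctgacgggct
Efemp2: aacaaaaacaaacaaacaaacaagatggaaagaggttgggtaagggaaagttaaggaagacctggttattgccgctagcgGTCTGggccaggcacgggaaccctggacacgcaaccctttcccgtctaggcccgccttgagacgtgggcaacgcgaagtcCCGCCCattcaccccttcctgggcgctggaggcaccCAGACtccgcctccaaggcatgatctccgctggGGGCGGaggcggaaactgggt
The AP-1 letters occurred in the Efemp1 window, 154 bases before the start, and in none of the other 9 member windows; 6.75% of all 32851 windows of this length hold them. The Fbln1 window held the SMAD letters at 2 places and the Efemp2 window at 2 places, against 42.2% of all windows with at least 1 match. The GC box, found in 32.7% of all windows, was in the Efemp1, Fbln5 and Efemp2 windows and not in the Fbln1 window shown. A second Fbln5 window, not printed, held the SMAD letters at 2 places and no GC box. A second Fbln1 window held both, and the other Efemp2 windows held the GC box but not the SMAD letters. The contrast between these genes thus depends on the window taken. The 4 windows shown held no match to the TATA box TATAAA, the TEAD site CATTCC, the GATA site AGATAA or the T-box letters AGGTGT, on either strand. A match describes the letters of the window and does not show that a factor binds there.

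Library totals ran from 39065969 to 61886463 counts. Replicates agreed least in CF, where log2 CPM (a gene's counts scaled to the library total) had a Pearson correlation across genes of 0.984, against 0.991 to 0.993 in the other groups. The summed fibroblast markers were highest in CF, where the 9 of 10 listed that were measured (among them Dcn and Pdgfra) reached 36830 and 38847 CPM. Col1a1, Col1a2 and Col3a1 made up most of this sum (11029, 10285 and 13315 CPM on average in CF). Postn and Thy1 went the other way, with their lowest group means in CF (763 and 230 CPM). The marker sum was 16806 and 16423 CPM in iCM under DMSO, 10700 and 10908 under ZLN005, 13035 and 13215 under GW501516, and 13068 and 13020 in CM. The 10 cardiomyocyte markers summed to 348 to 500 CPM in CF, 4151 to 4253 with DMSO, 6717 to 7153 with ZLN005, 7086 to 7150 with GW501516 and 26863 to 27170 in CM. The CF libraries differed in macrophage markers (13 of 14 measured), at 3204 CPM in replicate 1 and 507 in replicate 2; these markers summed to 811 and 847 CPM with DMSO, 119 in both ZLN005 libraries, 112 in both GW501516 libraries, and 27.9 and 29.9 in CM.

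The 10 genes took 1.42% and 1.62% of all counts in CF, 0.622% and 0.605% in iCM under DMSO, 0.343% and 0.346% under ZLN005, 0.437% and 0.438% under GW501516, and 0.331% and 0.326% in CM. The share fell from CF to iCM and was lower again with each compound, with no overlap between these groups, and the ZLN005 libraries came nearest to CM. In bulk samples fewer cells of a type and less RNA per cell cannot be told apart. Set against the summed fibroblast markers, the summed CPM of the 10 genes gave a ratio of 0.385 and 0.418 in CF, 0.370 and 0.368 under DMSO, 0.321 and 0.317 under ZLN005, 0.335 and 0.332 under GW501516, and 0.253 and 0.251 in CM. Relative to these markers the sum, to which Eln contributes most in CF and iCM and Fbn1 in CM, was lower in both compound groups than with DMSO and lowest in CM, by smaller factors than the share of counts. The marker sum is mostly Col1a1, Col1a2 and Col3a1, so the ratio compares the 10 genes mainly with collagen messages. With ZLN005 against DMSO these collagens fell (log2 change −0.76, −0.91 and −0.70), as did Lum and Pdgfra. Dcn and Postn were not called there, and Thy1 rose (427 to 642 CPM on average). Taken 1 gene at a time, the ratio to the marker sum was lower with ZLN005 than with DMSO in both libraries for 7 genes, higher for Efemp1 and Efemp2 and overlapping for Fbn2. With GW501516 it was lower for 4 genes (Fbln2, Fbln5, Mfap5 and Eln), higher for Fbln1, Efemp1 and Efemp2, and overlapping for 3. It was lower in iCM with DMSO than in CF for Fbln1, Fbn2, Mfap4 and Eln and higher for the other 6, and in CM against CF it was lower for 5 genes and higher for 5 (Fbln2, Efemp1, Efemp2, Fbn1 and Fbn2). The ratio was not computed for all genes, so it is not known how many would separate in this way. These counts describe the 10 genes and cannot be read as a trait of the set.

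Compared per length of exon sequence (RPKM, CPM per kilobase of exon), Eln led in CF at 1061 ± 125 (SD, n = 2), which placed it 12th to 14th of 20291 genes in the 2 libraries. Mfap4 came next at 634 ± 28.9 (25th and 26th), followed by Fbln2 at 252 ± 10.9 and Fbn1 at 200.4 ± 19.5. These levels put elastin, the core of the fibre, and Mfap4 among the most abundant messages of these fibroblasts. Eln held 43.7% of the summed RPKM of the 10 genes in CF, 36.8% in iCM under DMSO, 34.1% under ZLN005, 33.3% under GW501516 and 27.1% in CM. Mfap4 held 26.2% in CF, 11.7% with DMSO and 3.72% in CM. Fbln2 rose as a share, from 10.4% in CF to 19.0% with DMSO and 32.2% in CM, while its own level fell. In CM Fbln2 (137 ± 0.76 RPKM) stood above Eln (115 ± 0.24), but with the longest transcript as length in place of all exons Eln stood above Fbln2 (242 against 182).

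**Figure D1:**
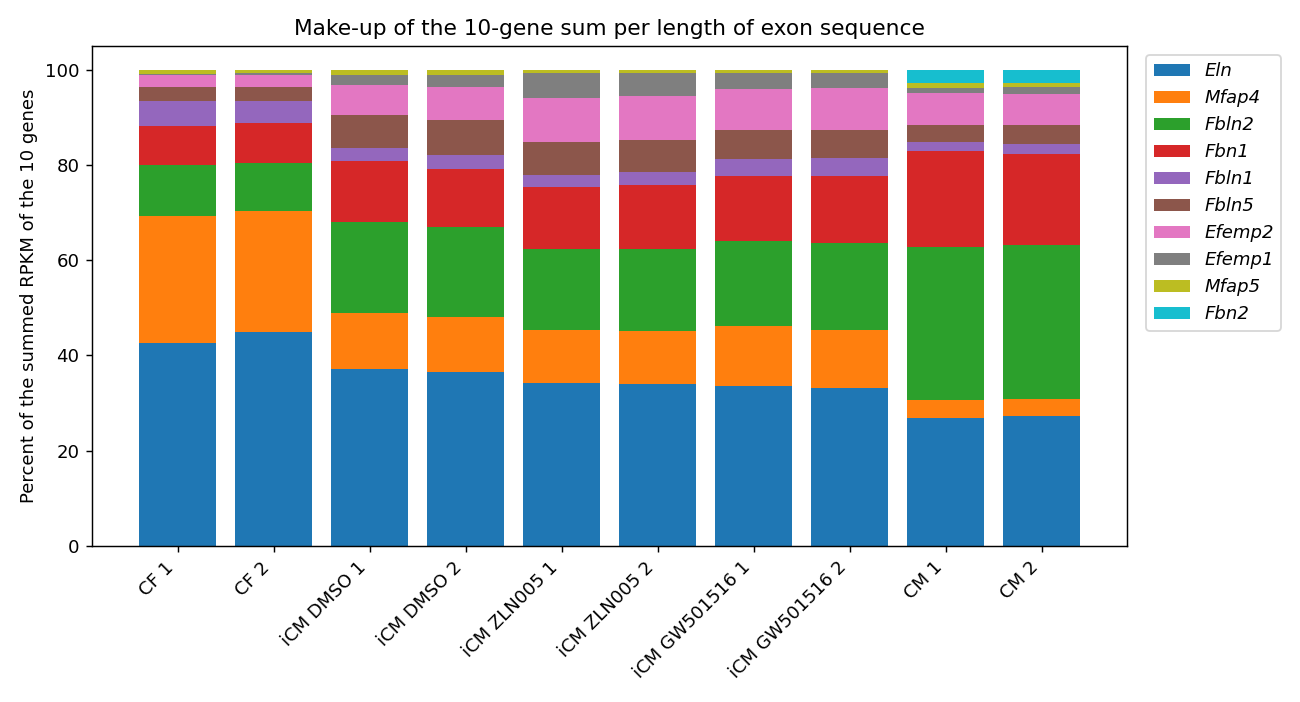
Stacked bars give, for each of the 10 libraries, the percent of the summed RPKM of the 10 genes held by each gene (all exons as length). Eln (43.7%) and Mfap4 (26.2%) fill most of the CF bars, and Fbln2 (32.2%) is the largest part of the CM bars.

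Fbn1, the main structural protein of microfibrils, stood at 2263 and 2598 CPM in CF, 1395 and 1305 under DMSO, 811 and 832 under ZLN005, 1077 and 1096 under GW501516, and 1040.02 and 992 in CM. The CF libraries were highest and the ZLN005 libraries lowest, below both CM libraries, and no 2 groups overlapped. CM and iCM with GW501516 did not differ beyond their spread (adjusted p = 0.555), and each other step of the order ZLN005, CM, GW501516, DMSO, CF passed the test. The step from GW501516 to DMSO did so narrowly (adjusted p = 0.0426). Fbn2, the fibrillin of developing tissues, stood at 44.8 and 41.3 CPM in CF, 7.85 and 6.64 under DMSO, 5.12 and 4.23 under ZLN005, 5.90 and 6.70 under GW501516, and 158 and 152 in CM. Its order was unlike that of any other gene of the set, with CM far above CF and all 3 iCM groups far below both. The GW501516 and DMSO libraries overlapped and did not differ beyond their spread (adjusted p = 0.319). Per length, Fbn1 exceeded Fbn2 by 55.1 and 68.6 times in CF, by 173 to 214 times in the 6 iCM libraries, and by 7.19 and 7.09 times in CM.

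Eln stood at 7876 and 9305 CPM in CF, 2702 and 2601 under DMSO, 1413 and 1410.3 under ZLN005, 1752 and 1729 under GW501516, and 931 and 934 in CM. Each step of the order CM, ZLN005, GW501516, DMSO, CF passed the test without overlap, although the step from ZLN005 to GW501516 did so narrowly (adjusted p = 0.0463). The CF libraries were the widest apart of any group, and replicate 2, with fewer macrophage markers, was the higher of the pair for 7 of the 10 genes, Eln among them, and the lower for Fbln1, Efemp1 and Fbn2. The part of the macrophage content in this spread was not tested.

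Mfap4, a fibrinogen-like glycoprotein that binds fibrillin and elastin, stood at 1179.6 and 1258 CPM in CF, 201 and 198 under DMSO, 109 and 110.04 under ZLN005, 157 and 152 under GW501516, and 30.9 and 30.0 in CM. The 5 groups were all apart, in the same order as for Eln, and each neighbouring pair differed (adjusted p of 0.00305 or less). Mfap5, a small protein bound along microfibrils, stood at 55.3 and 61.0 CPM in CF, 32.2 and 36.0 under DMSO, 11.9 and 10.9 under ZLN005, 15.6 and 15.9 under GW501516, and 15.2 and 14.8 in CM. CM and GW501516 lay side by side (adjusted p = 0.797), and ZLN005 lay below both.

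Among the fibulins that act on elastin, Fbln5, which brings tropoelastin and the crosslinking enzyme Loxl1 together on the microfibril, stood at 446 and 557 CPM in CF, 426 and 454 under DMSO, 240.2 and 240.1 under ZLN005, 269 and 271 under GW501516, and 106 and 112 in CM. CF and DMSO overlapped (adjusted p = 0.173), the compounds lay close together well below them (adjusted p = 0.289 between ZLN005 and GW501516), and CM was lowest. Efemp2 (fibulin-4), which binds lysyl oxidase and is needed for elastic fibres to form, stood at 224 and 244 CPM in CF, 217 and 230.3 under DMSO, 180.5 and 178 under ZLN005, 215 and 213 under GW501516, and 106 and 107 in CM. Its group means spanned only 106 to 234 CPM, the narrowest range of the 10 genes as a ratio, and DMSO did not differ beyond the spread from either GW501516 (adjusted p = 0.737) or CF (adjusted p = 0.498).

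Efemp1 (fibulin-3), a close relative of Efemp2, was the exception, at 13.1 and 12.1 CPM in CF, 38.4 and 42.5 under DMSO, 53.4 and 51.2 under ZLN005, 42.3 and 40.6 under GW501516, and 10.5 and 11.3 in CM. All 6 iCM libraries lay above all 4 libraries of the primary cells, which did not differ beyond their spread (adjusted p = 0.138). The ratio of Efemp2 to Efemp1 per length was 9.22 and 10.8 in CF, 1.82 and 1.87 with ZLN005, and 5.42 and 5.08 in CM.

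Fbln1, a fibulin of basement membranes and elastic fibres that binds fibronectin, stood at 533 and 505 CPM in CF, 111 and 112 under DMSO, 56.5 and 60.6 under ZLN005, 99.6 and 103 under GW501516, and 37.9 and 39.1 in CM. The large step was from CF to iCM, and GW501516 and DMSO did not differ beyond their spread (adjusted p = 0.132). Fbln2, which also binds fibronectin and is known from the developing heart valves, stood at 1555 and 1653 CPM in CF, 1092 and 1064 under DMSO, 553 and 565 under ZLN005, 739 and 757 under GW501516, and 876 and 869 in CM. All steps of the order ZLN005, GW501516, CM, DMSO, CF passed the test, so both compound groups lay below the cardiomyocytes.

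**Figure D2:**
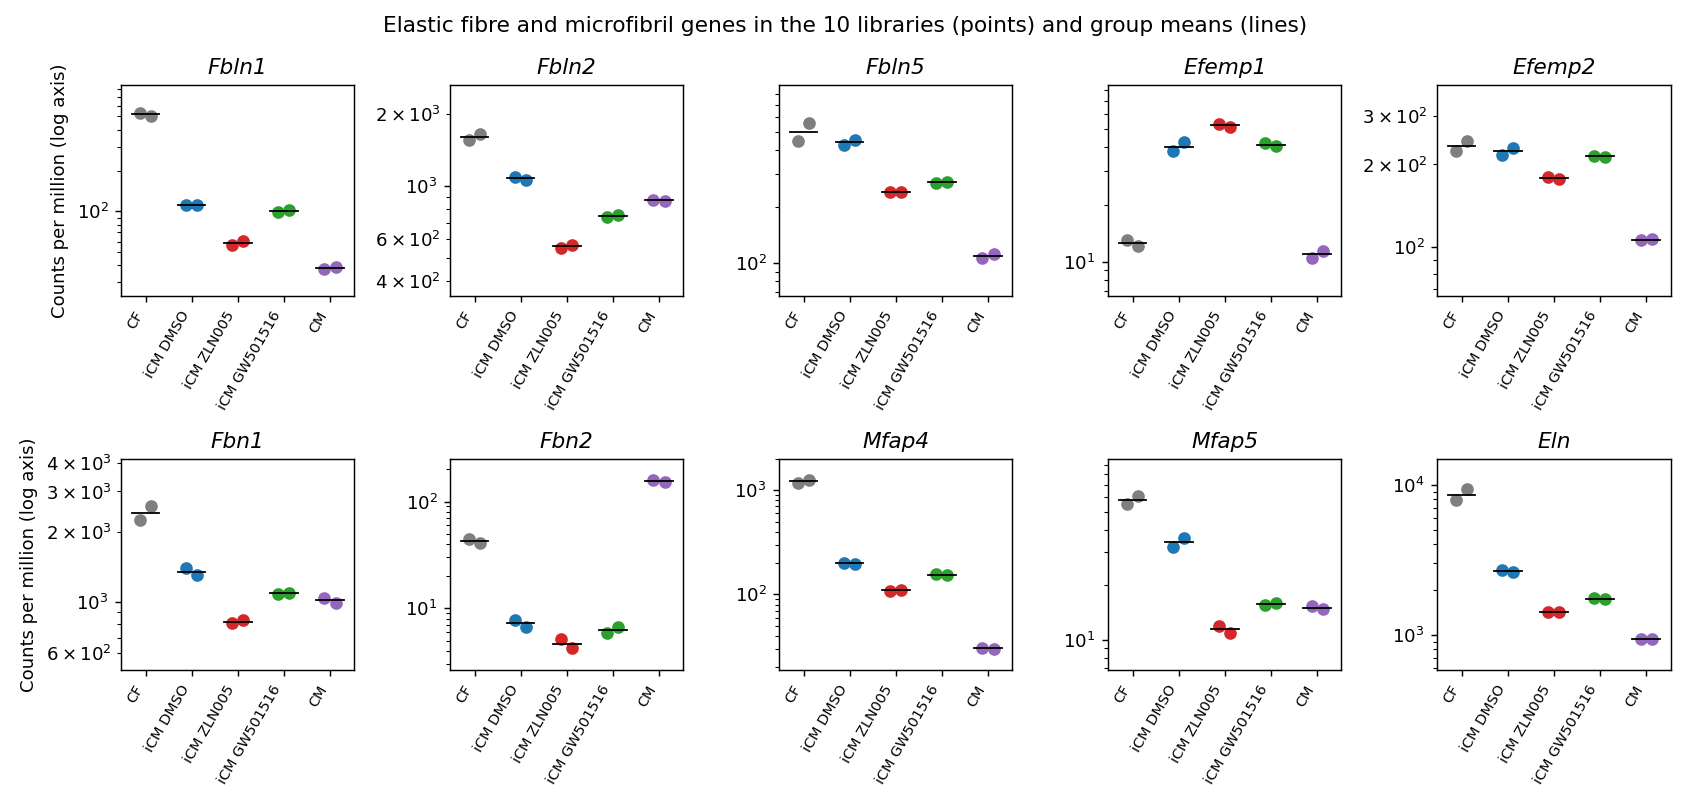
CPM of each gene on log axes, with a point per library and a line at each group mean (n = 2). Fbln1, Fbln5, Efemp2, Mfap4 and Eln step down in group mean from CF through the iCM groups to CM, Fbln2, Fbn1 and Mfap5 are lowest under ZLN005, Efemp1 is higher in iCM than in both primary cell types (40.5 CPM on average with DMSO against 12.6 in CF), and Fbn2 is lower in iCM than in both.

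The first comparison, iCM with DMSO against CF, sets the induced cells that received only the solvent beside the fibroblasts. Of the 10 genes 7 fell, 1 rose and 2 were not called, beside 39.3% of all 15740 genes called, 19.5% lower and 19.9% higher. The median log2 change of the 10 was −0.80, against −0.0116 over all genes. The falls were largest for Mfap4 (log2 change −2.60 ± 0.06 SE, 6.08-fold lower), Fbn2 (−2.56 ± 0.09), Fbln1 (−2.21 ± 0.05) and Eln (−1.69 ± 0.09, 3.23-fold lower, adjusted p = 1.33e-07). Fbn1 fell by 0.84, Mfap5 by 0.77 and Fbln2 by 0.57 on the log2 scale. Efemp1 rose 3.24-fold (log2 change 1.69 ± 0.07, adjusted p = 1.84e-08). Fbln5 (−0.19 ± 0.10) and Efemp2 (−0.06 ± 0.06) were not called, but without CF replicate 1 both were called lower, at −0.35 (adjusted p = 3.31e-07) and −0.14 (adjusted p = 0.0116). Of the 9 fibroblast markers 7 fell and 2 rose in this comparison (median log2 change −1.12), of 8 endothelial markers 6 fell and 1 rose, and of 8 smooth muscle and pericyte markers 2 fell and 4 rose. Their part in the result was not tested.

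With ZLN005 against DMSO, 9 of the 10 genes fell and 1 rose, beside 15.5% of all genes called, 8.84% lower and 6.64% higher. The median log2 change of the 10 was −0.90, against −0.000408 over all genes. Mfap5 fell most, by 1.61 ± 0.09 on the log2 scale (3.06-fold lower, adjusted p = 2.33e-06). A group of 5 genes fell by nearly the same amount, namely Fbln2 (−0.98 ± 0.06), Fbln1 (−0.96 ± 0.05), Eln (−0.94 ± 0.09), Fbln5 (−0.91 ± 0.10) and Mfap4 (−0.90 ± 0.06). Fbn1 (−0.75), Fbn2 (−0.68) and Efemp2 (−0.36) fell less. Efemp1 rose 1.26-fold (log2 change 0.34 ± 0.07, adjusted p = 0.00763), a call that was lost without DMSO replicate 1 (adjusted p = 0.0845) or ZLN005 replicate 1 (adjusted p = 0.0703), while the 9 falls held with each of these 4 libraries left out. Of the 9 fibroblast markers 5 fell and 1 rose in this comparison, of the 13 macrophage markers 12 fell, and of the 8 smooth muscle and pericyte markers 5 fell and 1 rose (median log2 change −0.59). Their part in the result was not tested.

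With GW501516 against DMSO, 6 of the 10 genes fell and 4 were not called, beside 14.8% of all genes called, 6.96% lower and 7.8% higher. The median log2 change of the 10 was −0.32, against −0.00549 over all genes. Mfap5 again led, at −1.09 ± 0.09 (2.13-fold lower, adjusted p = 3.62e-05). Fbln5 (−0.68 ± 0.10), Eln (−0.58 ± 0.09), Fbln2 (−0.50 ± 0.06) and Mfap4 (−0.34 ± 0.06) followed, so the elastin gene and a fibulin that guides it were both lower. Fbn1 was called at −0.29 ± 0.08 (adjusted p = 0.0426), but the call was lost without DMSO replicate 1 (adjusted p = 0.268), DMSO replicate 2 (0.0746), GW501516 replicate 1 (0.236) or GW501516 replicate 2 (0.175). Fbln1 (−0.11 ± 0.05), Fbn2 (−0.18 ± 0.11), Efemp2 (−0.04 ± 0.06) and Efemp1 (0.06 ± 0.07) were not called. Fbln1 was called lower without CF replicate 1 (adjusted p = 0.0445) and, separately, without CF replicate 2 (adjusted p = 0.0471), with nearly the same log2 change. Of the fibroblast markers 2 fell and 3 rose, of the 13 macrophage markers 11 fell, and of the 8 smooth muscle and pericyte markers 3 fell and 2 rose (median log2 change −0.63). Their part was not tested.

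The compounds were compared directly, at doses the labels do not give. Of the 10 genes 8 were lower with ZLN005 than with GW501516, 1 was higher and 1 was not called, beside 5.06% of all genes called, 3.52% lower and 1.54% higher. The median log2 difference of the 10 was −0.47, against −0.00148 over all genes. Fbln1 differed most (−0.85 ± 0.05, 1.80-fold lower with ZLN005, adjusted p = 3.02e-06), then Mfap4 (−0.56 ± 0.06, adjusted p = 0.000313), Mfap5 (−0.53 ± 0.09), Fbn2 (−0.50 ± 0.11), Fbln2 (−0.48 ± 0.06, adjusted p = 0.000984) and Fbn1 (−0.46 ± 0.08). Smaller differences were called for Eln (−0.36 ± 0.09), Efemp2 (−0.32 ± 0.06) and, in the other direction, Efemp1 (0.28 ± 0.07, adjusted p = 0.0435). Fbln5 was not called (−0.23 ± 0.10) but was when CF replicate 1 (adjusted p = 0.00012) or, in its place, CF replicate 2 (adjusted p = 0.000115) was left out of the fit. The count of 9 called rested on all 4 libraries compared. It was 5 without ZLN005 replicate 1 and 3 without ZLN005 replicate 2, GW501516 replicate 1 or GW501516 replicate 2. Fbln1, Fbln2 and Mfap4 were the 3 genes called with each of these left out. Of the 9 fibroblast markers 6 were lower with ZLN005 and 1 was higher, and of the 8 smooth muscle and pericyte markers 1 was lower. Their part was not tested.

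**Figure D3:**
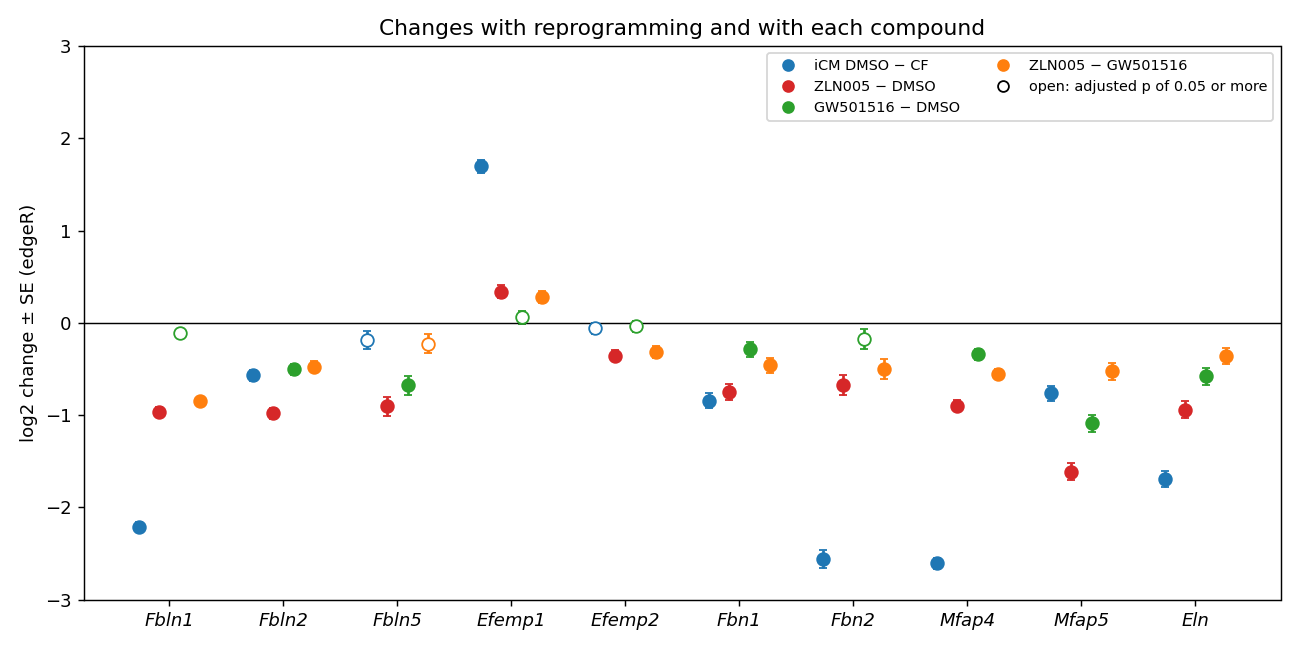
Log2 change ± SE from edgeR for each gene in iCM with DMSO against CF, each compound against DMSO, and ZLN005 against GW501516. Filled points passed an adjusted p of 0.05; Mfap5 has the largest fall with either compound (−1.61 and −1.09), and Fbln1 differs most between them.

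Primary cardiomyocytes at day 3 expressed less of most of these genes than day 14 fibroblasts. In CM against CF 8 of the 10 fell, 1 rose and 1 was not called, beside 70.7% of all genes called, 36.2% lower and 34.5% higher. The median log2 change was −1.54, against −0.0229 over all genes. Mfap4 was 38.1-fold lower (−5.25 ± 0.07), Fbln1 12.8-fold lower (−3.68 ± 0.05) and Eln 8.77-fold lower (−3.13 ± 0.10), whereas Fbn2 was 3.79-fold higher (1.92 ± 0.08, adjusted p = 9.08e-09). The summed fibroblast markers were lower in CM (13068 and 13020 CPM) than in CF (36830 and 38847 CPM) as well, while 5 of the 8 smooth muscle and pericyte markers were higher and 3 lower. Their part in the result was not tested.

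Set against CM, iCM with DMSO were higher in 9 of the 10 genes and lower in Fbn2. Seen from CM, 9 were lower and 1 higher, beside 69.7% of all genes called, 35.7% lower and 34.1% higher. Against iCM with ZLN005, CM were lower in 6 genes and higher in 4 (Fbn2, Fbln2, Mfap5 and Fbn1), beside 67.9% of all genes called, 33.7% lower and 34.2% higher. Against iCM with GW501516, CM were lower in 6 and higher in 2 (Fbn2 and Fbln2), beside 67.2% called, 33.5% lower and 33.7% higher. The largest of these differences was in Fbn2, which was 22.4-fold, 35.8-fold and 25.3-fold higher in CM than with DMSO, ZLN005 and GW501516. In the same order, 4, 6 and 4 of the 9 fibroblast markers were higher in CM and 4, 2 and 2 were lower. In each comparison 7 of the 8 endothelial markers were higher in CM and 0 lower. The summed fibroblast markers in CM (13068 and 13020 CPM) lay above those with ZLN005 (10700 and 10908) and below those with DMSO (16806 and 16423). Their part in the result was not tested.

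Each iCM group was then placed against both primary cell types. With ZLN005, Fbln2, Fbn1, Fbn2 and Mfap5 were below both CF and CM, Efemp1 was above both, and 5 genes (Fbln1, Fbln5, Efemp2, Mfap4 and Eln) lay between them. In iCM with ZLN005 against CF, 9 genes were lower and 1 higher, beside 50.1% of all genes called, 26% lower and 24% higher. With GW501516, Fbln2 and Fbn2 were below both, Efemp1 was above both, 4 lay between and 3 did not differ beyond the spread from 1 of them. In iCM with GW501516 against CF, 8 genes were lower and 1 higher, beside 49.9% of all genes called, 25.9% lower and 23.9% higher. With DMSO, Fbn2 alone was below both, Efemp1 alone above both, 6 lay between and 2 did not differ from CF beyond the spread. These placements share the CF and CM libraries among the 3 iCM groups and are not independent of each other. The percents of all genes given beside them are for the test against CF alone. The share of all genes below both, above both or between is not given here. The placements therefore describe these genes and cannot be read as a trait of the set. Cell type markers also differed between the groups, and their part in the placements was not tested.

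**Figure D4:**
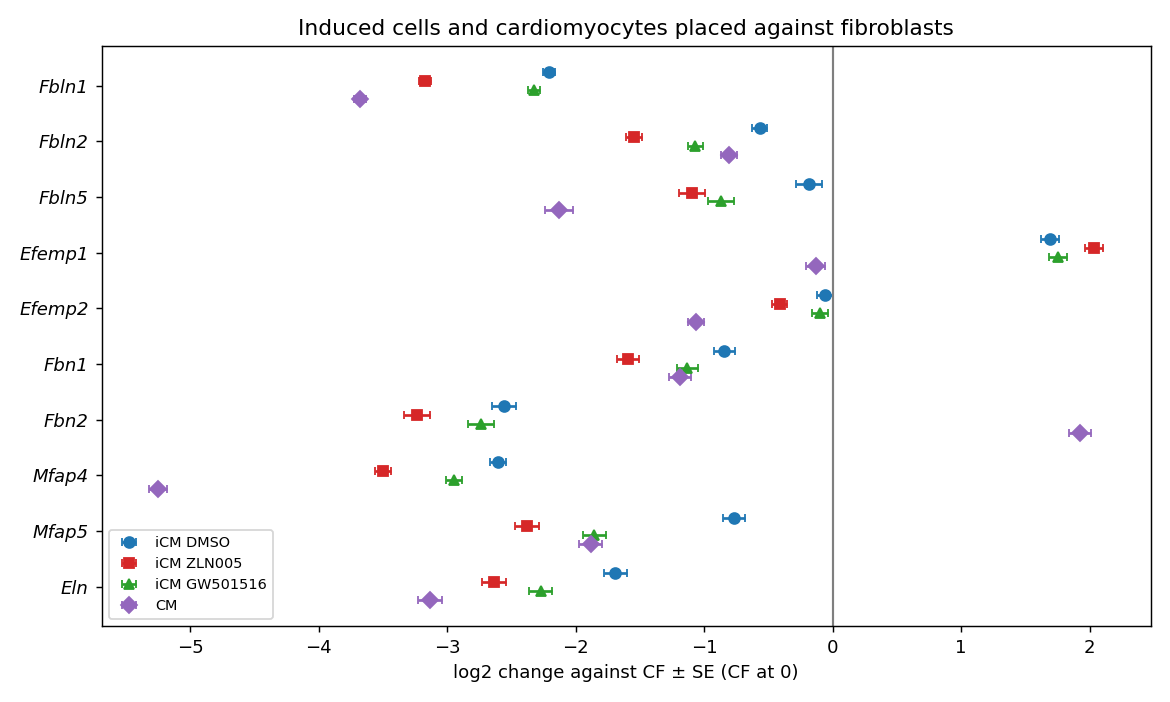
Log2 change against CF (vertical line at 0) ± SE from edgeR for the 3 iCM groups and CM. Efemp1 in iCM lies to the right of both CF and CM, Fbn2 in iCM lies to the left of both (−2.56 with DMSO against 1.92 in CM), and Fbln2 with either compound lies to the left of CM.

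Other genes of microfibril and elastic fibre assembly were examined through a list of 24, of which 23 were tested. In iCM with DMSO against CF 8 rose and 11 fell, where 19.9% and 19.5% of all genes did. The largest change was a rise of Ltbp1, which anchors latent TGFβ to microfibrils, from 40.3 ± 3.3 to 598 ± 18.1 CPM (log2 change 3.90 ± 0.08, adjusted p = 6.31e-11). Adamts17, a secreted protease family member linked to fibrillin, fell from 26.1 ± 1.1 to 2.60 ± 0.11 CPM, and Mfap2, which encodes another microfibril-associated protein, fell from 16.8 ± 2.1 to 1.84 ± 0.34 CPM. With ZLN005 against DMSO 2 rose and 15 fell (6.64% and 8.84% of all genes), among the latter the crosslinking enzyme Loxl3 (285 ± 3.2 to 137 ± 1.5 CPM) and Ltbp2 (255 ± 4.4 to 124 ± 4.0 CPM). With GW501516 4 rose and 11 fell (7.8% and 6.96% of all genes). Ltbp2 fell there to 98.1 ± 3.4 CPM (log2 change −1.35 ± 0.10), while Thsd4, which promotes fibrillin assembly, rose from 15.8 ± 0.78 to 27.7 ± 1.1 CPM. Emilin2, a glycoprotein of the elastin and microfibril interface, fell from 12.4 ± 0.24 CPM with DMSO to 0.702 ± 0.12 with ZLN005 and 1.05 ± 0.10 with GW501516. The log2 changes had wide errors (−4.14 ± 1.00, adjusted p = 0.0197, and −3.53 ± 0.97, adjusted p = 0.0343). Its CF libraries spread widely (5.53 and 66.9 CPM). Macrophage markers also fell with both compounds and differed between the CF libraries, and their part was not tested. Between the compounds 6 were lower with ZLN005 and 17 were not called (3.52% of all genes were lower), the 6 led by Emilin1 (342 ± 3.1 against 521 ± 8.2 CPM), Loxl3 and the lysyl oxidase gene Lox (1893 ± 28.1 against 2447 ± 11.8 CPM). In CM against CF 4 rose and 15 fell (34.5% and 36.2% of all genes), with Adamtsl2, a fibrillin-binding protein, at 50.2 ± 1.6 against 2268 ± 241 CPM.

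Of 10 integrin subunits that serve as receptors for these proteins, 5 rose and 4 fell in iCM with DMSO against CF, beside 39.3% of all genes called. Itga5, of the fibronectin receptor, rose from 96.2 ± 0.99 to 216 ± 4.2 CPM, and Itgb8, which pairs with the αv subunit, fell from 63.7 ± 5.0 to 29.1 ± 1.3 CPM. With ZLN005 against DMSO 1 rose and 4 fell, beside 15.5% called, among them Itgb3 (79.1 ± 4.2 to 50.4 ± 0.51 CPM). With GW501516 1 rose and 2 fell, beside 14.8% called, again with Itgb3 (59.3 ± 0.93 CPM). Of 8 elastin-degrading proteases tested, 3, 4 and 2 fell in these 3 comparisons in that order and the rest were not called, where 19.5%, 8.84% and 6.96% of all genes fell. Mmp2, a gelatinase that also cleaves elastin, fell from 1569 ± 85.3 CPM in CF to 460 ± 9.8 with DMSO and 343 ± 9.2 with ZLN005. Mmp12, the macrophage elastase, fell from 61.2 ± 1.9 CPM with DMSO to 15.1 ± 0.50 with ZLN005 and 20.7 ± 0.46 with GW501516, alongside the macrophage markers, whose part was not tested. In CM against CF all 8 proteases were called lower, and of the integrins 4 were higher and 5 lower, beside 36.2% of all genes lower and 34.5% higher. The CM and CF libraries did not overlap for 7 of these 8 proteases. Mmp9 was the exception, at 0.194 and 21.06 CPM in the CF libraries against 0.295 and 0.298 in CM. It was thus lower in CM than the higher CF library only. Mmp9 was also among the 3 proteases that fell in iCM with DMSO (0.156 CPM on average), against the same widely spread CF libraries. The part of the macrophage content in this spread was not tested.

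The genes whose pattern over the 5 group means came closest to each member were found among 10385 candidates by the root mean square difference of centred log2 CPM. Efemp2 had the closest matches, Mgll (0.0311 log2 units) and Carf (0.0453). Hhipl1 was nearest to Fbn1 (0.0593) and Folr1 to Efemp1 (0.0765). Fbn2, with its high level in CM and low level in iCM, was nearest to H19 (0.217) and Ccn3 (0.245), and Eln to Thbd (0.186) and Lpcat2 (0.189). Kif26b and Heyl were nearest to Mfap5 (0.118 and 0.121), Myo7a to Fbln1 (0.153), Mirg to Fbln2 (0.139), Pla2g15 to Fbln5 (0.125) and Gng8 to Mfap4 (0.161). Within the set, Fbn1 and Fbln2 were the most alike pair (0.148), then Fbln1 and Eln (0.252), while Fbn2 was 1.77 log2 units from its nearest member. These distances rest on 5 group means of 2 libraries each and describe likeness of level.

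On GRCm38 in GENCODE M21, Eln lies at chr5:134702593-134747323 (minus strand), Fbn1 at chr2:125300594-125507993 (minus), Mfap4 at chr11:61485431-61488900 (plus), Mfap5 at chr6:122505845-122529290 (plus), Fbln1 at chr15:85205949-85286535 (plus), Fbln2 at chr6:91212455-91272540 (plus), Fbln5 at chr12:101746565-101819055 (minus), Efemp1 at chr11:28853204-28926743 (plus) and Efemp2 at chr19:5473954-5482517 (plus). Fbn2 lies on the minus strand of chromosome 18. All are protein-coding, and counts are taken over their exons. Exons of Efemp2 overlap Mus81 and those of Mfap4 overlap Mapk7 on the opposite strand, and those of Fbn1, Fbn2 and Eln overlap the predicted genes Gm9913, Gm26507 and Gm30003 on the opposite strand, which are not analysed here. The strand setting of the counting is not given in the sources used here, and without strand reads of each pair cannot be told apart in the overlap. Mus81 stood at 13.4 to 18.4 CPM and Mapk7 at 20.7 to 35.3 CPM in group means. In CM, Mapk7 (20.7 ± 1.0 CPM) lay below Mfap4 (30.5 ± 0.64 CPM) but nearer to it than in the other groups.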

How the data were processed

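The authors deposited raw gene counts for 10 libraries. Per the submitters' processing notes, the tools were Trimmomatic 0.36, HISAT2, SAMtools and featureCounts of Subread 1.5.1, with the mm10 build. Annotation and strand setting: not given in the sources used here. Per the labels' protocols, RNA was extracted with TRIzol and made into libraries with a TruSeq kit.

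After filterByExpr, which kept 15740 genes, edgeR 4.0.16 (R 4.3.3) was used with TMM factors and 1 quasi-likelihood fit of the 5 groups. Adjusted p-values (Benjamini-Hochberg, over every gene tested) under 0.05 were called, and a standard error is the size of the log2 change divided by the root of its F value. The method was first run on counts simulated for ZLN005 against DMSO, with the same spread of a gene in all 5 groups. The outcome is not given here, and the simulation did not include the wider spread between the CF libraries. CPM use library totals of 39065969 to 61886463 counts, at which the lowest count of a member in a library was 200. RPKM use GENCODE M21 exon lengths, for the 20291 of 21513 symbols that matched 1 gene. Pattern likeness used log2 CPM with a prior count of 2 and genes with a mean of at least 5 CPM.

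All 10 members are named. From the lists of assembly genes, receptors and proteases, up to 3 called genes with the largest change were eligible in each comparison if the higher group reached 5 CPM, and for each member its nearest genes by pattern; not all are printed. The members and lists were chosen with earlier results of these data known, so their counts are descriptions. Promoter windows were cut to the 250 bases before the RefSeq start, and windows that overlap annotated exons by more than 1 base are not printed. The second Fbln5 window, which overlaps an exon by 1 base, is not printed either. Alternatives were DESeq2 1.42.0, limma-voom (limma 3.58.1), DESeq2 size factors in edgeR, 2 other filters, fits of only the groups compared, a replicate block, a threshold of 0.01, another transcript length and leaving out each library. Library totals without TMM, and leaving out CF libraries in comparisons without CF, were chosen after seeing the data. Tcf21, Itgam and Mmp7 were not analysed here. Figures were drawn with matplotlib 3.10.9.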

Additional observations from a re-analysis of the deposited data

How the results depend on the processing

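Of 1320 recomputed log2 changes of the 10 genes, 1274 kept their direction and side of the threshold, 34 were no longer called, 12 became called and 0 changed direction. The count of genes called was within 1.5 times of the reported one in 137 of 142 settings. The exceptions were all in ZLN005 against GW501516, where 9 became 5 at a threshold of 0.01 and 3 to 5 when 1 library was left out. DESeq2 changed no call of the 10 genes. limma-voom lost Fbn2 (adjusted p = 0.111) and Mfap5 (0.0593) in that comparison. Fitting only the groups compared called Fbln5 there (2.8e-05), Fbln1 in GW501516 against DMSO (0.0293) and Fbn1 in CM against GW501516 (0.0324). Library totals without TMM lost Fbn2 in ZLN005 against GW501516 (0.0566), called Efemp1 in CM against CF (0.036) and Efemp2 in GW501516 against CF (0.0414), and moved the median of all genes by −0.0981 in CM against ZLN005, the largest such move in the 10 comparisons. Efemp2 was also called in GW501516 against CF without CF replicate 1 (0.00147).

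The share of all genes called moved more. For ZLN005 against DMSO, GW501516 against DMSO and ZLN005 against GW501516 it was 29.7%, 29.1% and 16.6% in fits of only the 2 groups, 26.4%, 26% and 13.3% without CF replicate 1, 26.1%, 25.9% and 13.2% without CF replicate 2, and 7.69%, 7.12% and 2.79% at a threshold of 0.01. Leaving out 1 of the libraries compared gave 6.69% to 8.01%, 5.83% to 7.74% and 2.1% to 2.35%. The causes were not tested.

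With the replicate number as a block, Fbn1 in GW501516 against DMSO (adjusted p = 0.0535) and Efemp1 (0.0622) and Eln (0.0546) in ZLN005 against GW501516 were no longer called, and no other call of the 10 genes changed. Same-numbered libraries deviated from their group means with correlations of −0.00341 to 0.0397, so the numbers were not taken to pair the samples. With the longest transcript as length, the order of the 10 genes per length was the same in 1 of 5 groups. The calls that changed were of reported log2 changes between −0.53 and 0.34.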
